A study of Mus musculus with 4 samples.

Results

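The Snail, Twist and Zeb transcription factors, with Sox9, Msx1, Msx2 and Prrx1, form the core set of regulators followed here in the hearts of mouse embryos at E10.5. The set comprised 10 genes (Snai1, Snai2, Twist1, Twist2, Zeb1, Zeb2, Sox9, Msx1, Msx2 and Prrx1) of the 32285 genes in the deposited tables, was chosen by gene symbol, and all 10 were present in every library. Hearts were taken from wild-type (Wt) C57BL/6J embryos and from embryos homozygous for the Cyp51 I383V allele (Ho), made by CRISPR/Cas9 knock-in in the same strain, with 2 libraries per genotype, here called Wt1, Wt2, Ho1 and Ho2. Cyp51 encodes lanosterol demethylase, an enzyme of cholesterol synthesis, and the comparison addresses what a defect in cholesterol synthesis does to the embryonic heart. All hearts were dissociated with collagenase II, freed of red blood cells by lysis and sequenced as single cells with 10x Genomics 3′ chemistry. The allele is carried by all tissues of the embryo, the mRNA level of Cyp51 does not read a missense allele, and neither the number of embryos per library nor their litters were given in the sources used here, so that p-values measure only the spread between these libraries.

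The heart valves arise from endocardial cushions, swellings of the heart wall in the outflow tract and the atrioventricular canal. There, endocardial cells lose their junctions, become mesenchymal and migrate into the matrix under the cushion, a process called endothelial-to-mesenchymal transition (EMT). Bone morphogenetic protein, transforming growth factor beta and Notch signals start it, Snail, Twist and Zeb factors repress the genes that hold endothelial and epithelial cells together, and Msx and Sox9 factors act in the cells that transform and in the young mesenchyme. Neural crest and pharyngeal mesenchyme bring further cells to the outflow tract, and the epicardium, the outer cell layer of the heart, undergoes a transition of its own at later stages.

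The 4 libraries held 7058 to 10320 cell barcodes, and 29168 cells remained after filters on depth, mitochondrial reads and doublets (Wt1 8908, Wt2 7154, Ho1 6980, Ho2 6126). They carried between 97179971 (Wt1) and 113478594 (Ho1) unique molecular identifiers (UMIs, counts of single transcript molecules), and the median cell carried 10561 and 14215.5 UMIs in the Wt libraries and 15658 and 15831.5 UMIs in the Ho libraries. Cells were placed in gates by the UMIs of 1 or 2 genes. The endocardium gate required 2 or more UMIs of Cdh5, the cadherin of endothelial junctions, and held 5164 cells, of which 1820 had Npr3 without Wnt4 and 531 had Wnt4 without Npr3. The cushion gate required 3 or more UMIs of Hapln1, a protein that links hyaluronan to proteoglycans in the cushion matrix, with fewer than 2 of Cdh5, and held 2931 cells. Stmn4 outflow mesenchyme held 968 cells (2 or more UMIs), Crabp1 mesenchyme 2722 cells (3 or more UMIs) and epicardium, gated on Upk3b, 735 cells (2 or more UMIs). A cardiomyocyte gate of 9540 cells served as background, and 7108 cells fell in no gate.

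The gates were checked on markers they did not use. A list of 12 endothelial genes summed to 3449, 3640, 3094 and 3615 CPM (counts per 1000000 UMIs of the gate) in the endocardium of Wt1, Wt2, Ho1 and Ho2 and to 1195 to 1390 CPM in the cushion, so that the cushion gate still carried endothelial transcripts, with Ramp2 the most abundant of these genes. A list of 12 cushion mesenchyme genes summed to 1846 to 2095 CPM in the cushion, with Cthrc1 first, and to 588 to 703 CPM in the endocardium. The Stmn4 gate, at 2205 to 2614 CPM, lay above the cushion in every library, so that this list separated the cushion from the endocardium and not from the Stmn4 gate. Neural crest genes had a mean sum of 144.3 CPM in the endocardium, where Ednrb alone made up 140.4 CPM, 94.5 CPM in the cushion, 56.01 CPM in the Stmn4 gate and 20.7 CPM in the Crabp1 gate. Outflow mesenchyme genes summed to between 6577 and 11366 CPM in the Stmn4 gate, but also to between 7052 and 9462 CPM among cardiomyocytes, so that this list did not separate these gates. Epicardial genes summed to at least 1634 CPM in the epicardium gate, which also carried cardiomyocyte genes at 3365 to 4825 CPM, against 521 to 761 CPM in the endocardium and 792 to 1168 CPM in the cushion. The part of cardiomyocyte transcripts in the epicardial values below was not tested. Genes of pharyngeal mesenchyme summed to between 489 and 652 CPM in the Crabp1 gate and to between 516 and 704 CPM in the Stmn4 gate, with Prrx2 first in both, against at most 139 CPM in the cushion. In the Crabp1 gate 9 of these 12 genes were at 10 CPM or more, and the cushion list there summed to 563 to 1944 CPM, highest in Ho1.

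Ho1 stood apart from the other libraries in several respects. Its Crabp1 gate held 19 cells, against 1949 in Wt1, 373 in Wt2 and 381 in Ho2, and the cardiomyocyte genes there summed to 3051 CPM against 428 to 1123 CPM in the other libraries. Haemoglobin and other red cell genes summed to 737 CPM in the Ho1 endocardium, against 90.0, 78.8 and 119 CPM in Wt1, Wt2 and Ho2. Xist, transcribed from the inactive X chromosome of female cells, had 28877 UMIs in Ho1 and 5, 4 and 2 UMIs in Wt1, Wt2 and Ho2, so that embryo sex and this library cannot be told apart. Pairs of libraries shared 14 to 34 barcodes, at most 0.425% of a library.

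Members of the set recognise short DNA motifs that the set's own promoters may or may not hold. Basic helix-loop-helix factors such as Twist bind E-boxes (CANNTG, the same on both strands), and Snail and Zeb factors prefer the E-boxes CAGGTG or CACCTG, which are one motif read on opposite strands. RefSeq windows of the 250 bases upstream of the transcription start (build GRCm38.p6) were found for 7 of the 10 members. The windows shown are those of Snai1 (chr2:167537945-167538194, plus strand), Twist1 (chr12:33957421-33957670, plus strand), Twist2 (chr1:91801211-91801460, plus strand) and Msx1 (chr5:37824586-37824835, minus strand), because these members separated the cell populations below and their windows overlapped no annotated gene body. They are written 5′ to 3′ in the direction of the gene, with E-boxes in capitals.
Snai1: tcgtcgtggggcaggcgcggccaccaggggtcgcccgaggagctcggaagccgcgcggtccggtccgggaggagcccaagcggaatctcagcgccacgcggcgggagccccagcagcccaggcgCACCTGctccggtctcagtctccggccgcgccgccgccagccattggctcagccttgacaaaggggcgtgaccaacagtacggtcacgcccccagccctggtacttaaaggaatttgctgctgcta
Twist1: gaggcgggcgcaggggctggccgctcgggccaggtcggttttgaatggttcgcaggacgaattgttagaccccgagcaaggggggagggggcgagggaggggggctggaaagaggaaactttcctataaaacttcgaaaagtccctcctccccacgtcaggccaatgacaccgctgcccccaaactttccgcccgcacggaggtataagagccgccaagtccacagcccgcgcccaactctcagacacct
Twist2: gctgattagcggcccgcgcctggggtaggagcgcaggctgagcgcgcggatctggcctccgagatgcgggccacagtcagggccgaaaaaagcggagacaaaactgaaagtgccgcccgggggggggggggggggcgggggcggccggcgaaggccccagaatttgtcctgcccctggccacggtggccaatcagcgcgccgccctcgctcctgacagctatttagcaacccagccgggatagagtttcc
Msx1: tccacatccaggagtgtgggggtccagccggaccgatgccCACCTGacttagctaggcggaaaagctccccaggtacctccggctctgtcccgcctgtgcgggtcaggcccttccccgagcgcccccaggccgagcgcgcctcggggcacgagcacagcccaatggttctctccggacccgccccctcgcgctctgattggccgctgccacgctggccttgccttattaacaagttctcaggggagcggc
Snai1 and Msx1 each held a single E-box, and both read CACCTG. The window of Msx2 held CAGTTG, and those of Twist1, Twist2, Zeb2 and Prrx1 held no CANNTG. Among 32851 windows of this length in the same table, 66.2% held CANNTG and 17.2% held CAGGTG or CACCTG. These matches describe letters in a window and not binding. By GENCODE annotation of GRCm38 9 of the members, all protein-coding, lie at chr2:167538195-167542814 (Snai1), chr16:14705852-14709385 (Snai2), chr12:33957671-33959829 (Twist1), chr1:91801461-91848028 (Twist2), chr2:44983632-45117395 (Zeb2), chr11:112782224-112787760 (Sox9), chr5:37820485-37824583 (Msx1), chr13:53466884-53473074 (Msx2) and chr1:163245119-163313710 (Prrx1).

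From endocardium to cushion, 8 of 10 members were higher in the cushion and none was lower (edgeR quasi-likelihood test on UMI sums per library and gate with library as a block, Benjamini-Hochberg adjustment over 13402 genes). Of all genes tested, 19.4% were higher and 20.7% lower. Msx2 and Prrx1 passed the filter on low counts only through gates in which they were higher than in the endocardium, so that their direction was fixed by the filter and their calls are no support. The other 6 members called were Snai1, Snai2, Twist1, Twist2, Sox9 and Msx1. The exceptions were Zeb1 and Zeb2, which endocardium and cushion both carried.

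**Figure D1:**
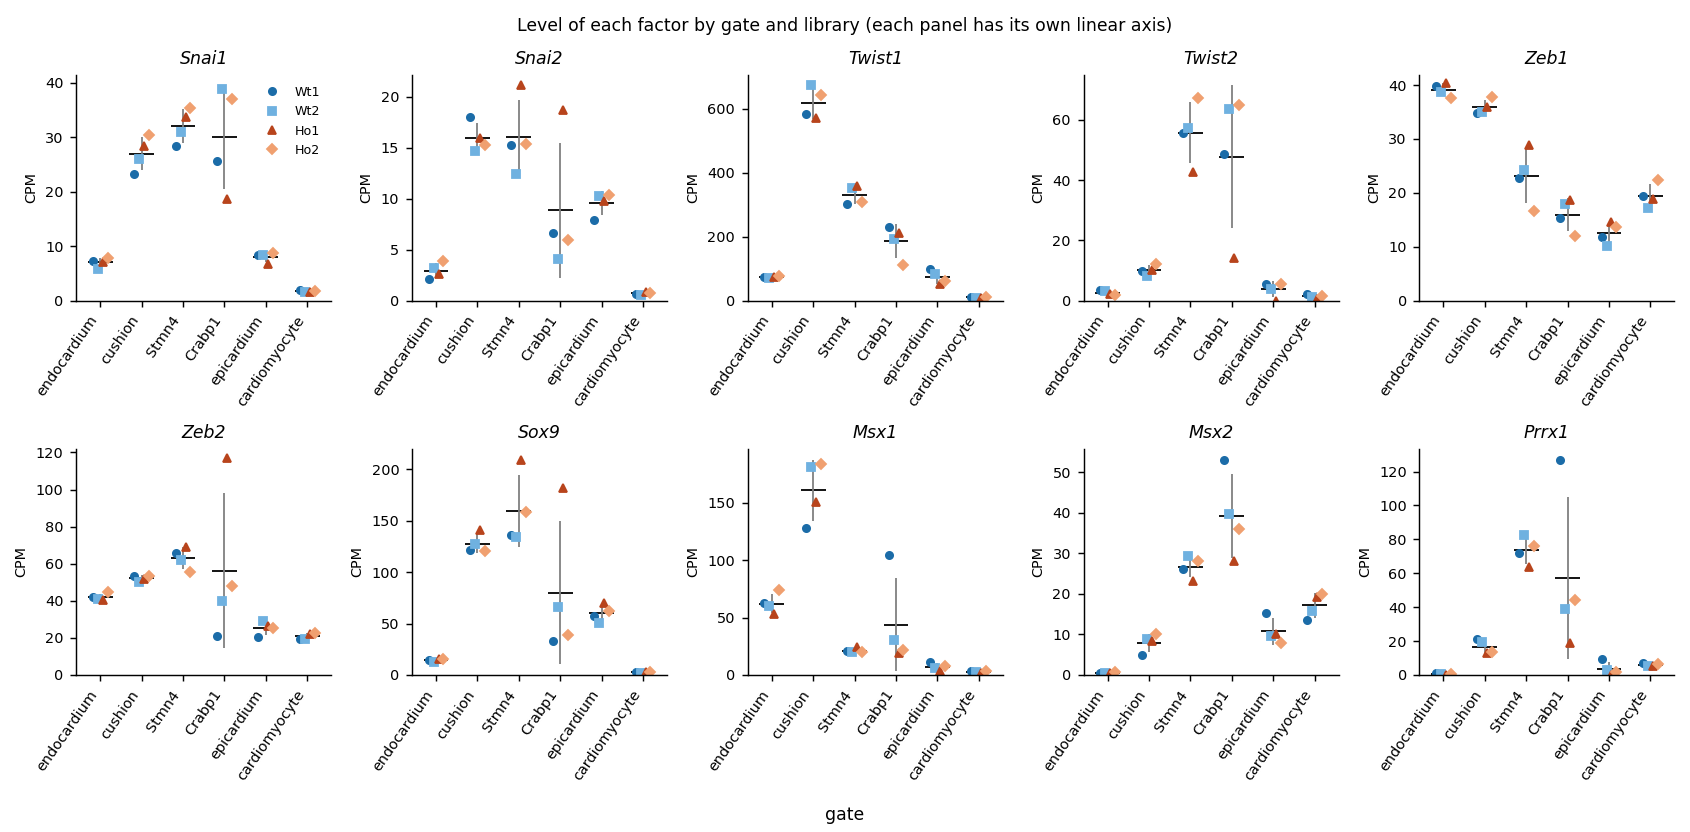
Level of each of the 10 members in the 6 gates, in CPM, each panel with its own linear axis, with 1 point per library, the mean of the 4 libraries as a black line and their SD as a grey bar. Twist1 and Msx1 peaked in the cushion, Zeb1 overlapped between endocardium and cushion, and Twist2, Msx2 and Prrx1 were higher in the Stmn4 and Crabp1 gates than in the cushion.

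Against the other mesenchymal gates the cushion was higher for some members and lower for others. Against Stmn4 outflow mesenchyme, 3 members were higher in the cushion (Twist1, Zeb1 and Msx1) and 4 lower (Snai1, Twist2, Msx2 and Prrx1), where 16.8% of all genes were higher and 17.4% lower. Against Crabp1 mesenchyme, 6 were higher (Snai2, Twist1, Zeb1, Zeb2, Sox9 and Msx1) and the same 4 lower, where 25.7% of all genes were higher and 23.9% lower. In the epicardium, 9 members were lower than in the cushion and Msx2 did not pass the test, where 23.7% of all genes were higher and 23.6% lower. Twist1, Zeb1 and Msx1 were thus higher in the cushion than in both other mesenchymal gates and in the epicardium. These contrasts share the cushion sums of the 4 libraries and are not independent of each other.

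**Figure D2:**
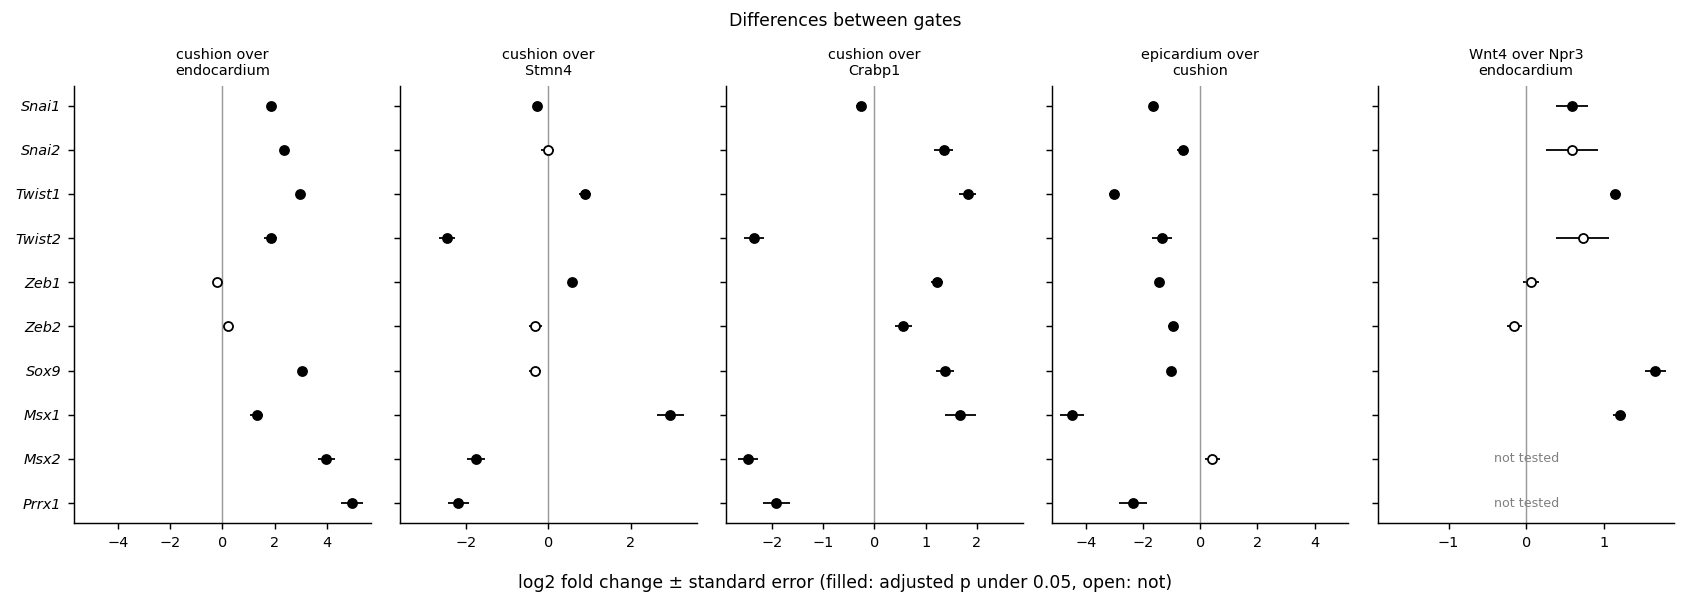
Log2 fold changes of the 10 members in the 5 contrasts between gates, the Npr3 and Wnt4 endocardium included, with standard errors as bars, filled points for an adjusted p under 0.05 and open points otherwise. Cushion against endocardium runs from -0.21 (Zeb1) to 4.95 (Prrx1), and Twist2, Msx2 and Prrx1 lie below 0 in the cushion against both the Stmn4 and the Crabp1 gate.

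Snai1 and Snai2 are zinc-finger repressors of cadherin genes and early markers of cells that leave an epithelium or endothelium. Snai1 stood at 23.2, 25.9, 28.4 and 30.4 CPM in the cushion of Wt1, Wt2, Ho1 and Ho2 and at 7.25, 5.88, 7.16 and 7.86 CPM in their endocardium. The ranges did not overlap, and the log2 fold change was 1.87 ± 0.10 (SE, adjusted p = 3.94e-13). The Stmn4 gate (28.3, 31.0, 33.7 and 35.4 CPM) and the Crabp1 gate (25.6, 38.8, 18.7 and 37.0 CPM) overlapped the cushion. The cushion was lower by a log2 fold change of -0.27 ± 0.10 against Stmn4 (adjusted p = 0.0392) and of -0.26 ± 0.10 against Crabp1 (adjusted p = 0.0336). The first of these calls was lost when any 1 of the 4 libraries was left out (adjusted p from 0.0691 to 0.133), and the second without Wt2 (-0.13, adjusted p = 0.361) or Ho2 (-0.23, adjusted p = 0.184) and, with a reversed sign, when cells were thinned to 2000 UMIs (0.08). DESeq2 called neither (adjusted p = 0.120 for both), and the Snai1 differences were -0.05 and -0.04 for cushion cells with Cdh5 at 0 and -0.07 and -0.03 with gates 1 UMI lower, all uncalled. Epicardium, at 6.65 to 8.80 CPM, overlapped the endocardium.

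Snai2 followed Snai1 in the endocardium and the cushion but was low in Crabp1 mesenchyme. It stood at 18.03, 14.7, 16.0 and 15.3 CPM in the cushion and at 2.13, 3.16, 2.59 and 3.84 CPM in the endocardium (log2 fold change 2.35 ± 0.16, adjusted p = 5.23e-11). The Stmn4 gate, at 12.4 to 21.2 CPM, overlapped the cushion (-0.02 ± 0.16, adjusted p = 0.948). In Crabp1 mesenchyme, Wt1, Wt2 and Ho2 had 6.64, 4.1 and 5.97 CPM and the 19 cells of Ho1 had 18.7 CPM, which rests on few UMIs. The cushion was higher there by 1.36 ± 0.19 (adjusted p = 2.26e-06). Epicardium carried 7.88 to 10.4 CPM, lower than the cushion by -0.62 ± 0.18 (adjusted p = 0.00821), a call that was lost when the gates were set on cells thinned to 5000 UMIs (-0.17, adjusted p = 0.582).

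Twist1 and Twist2, close relatives among the basic helix-loop-helix factors, split between the mesenchymal gates. Twist1, which acts in the proliferation and migration of cushion mesenchyme, reached 583, 673, 571 and 643 CPM in the cushion and 74.5, 71.3, 73.0 and 76.3 CPM in the endocardium. In each library the cushion was between 7.82 and 9.45 times the endocardium (2.98 ± 0.15, adjusted p = 4.13e-13). The Stmn4 gate stood between them at 303, 351, 357 and 306 CPM, and the Crabp1 gate at 229, 193, 210 and 111 CPM. No library of either gate reached the lowest cushion value, and the cushion was higher by 0.88 ± 0.15 against Stmn4 (adjusted p = 4.91e-05) and by 1.82 ± 0.16 against Crabp1 (adjusted p = 2.51e-09). The epicardium, at 52.8 to 99.3 CPM, overlapped the endocardium, and cardiomyocytes had 9.82 ± 1.59 CPM (SD, n = 4).

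Twist2 was higher in the Stmn4 and Crabp1 gates than in the cushion. It stood at 55.7, 57.2, 42.6 and 67.4 CPM in the Stmn4 gate against 9.76, 8.31, 10.1 and 12.2 CPM in the cushion. The ranges lay far apart, and the cushion was lower by -2.46 ± 0.19 (adjusted p = 1.28e-09). In the Crabp1 gate, Wt1, Wt2 and Ho2 had 48.8, 63.7 and 64.8 CPM and Ho1, with 19 cells, 14.0 CPM. Against the endocardium, at 3.46, 3.01, 2.25 and 1.83 CPM, the cushion was higher by 1.84 ± 0.24 (adjusted p = 1.37e-06). Epicardium had 5.52, 3.75 and 5.60 CPM in Wt1, Wt2 and Ho2 and no UMI in Ho1.

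Zeb1 and Zeb2, large repressors with 2 zinc-finger clusters and a homeodomain, did not pass the test between endocardium and cushion. Zeb1 stood at 39.8, 38.6, 40.4 and 37.7 CPM in the endocardium and at 34.8, 35.1, 36.0 and 37.8 CPM in the cushion, and the ranges overlapped. The log2 fold change was -0.21 ± 0.09 (adjusted p = 0.0584), and 7 of the 19 alternative settings in which it was tested, leaving out Ho2 among them, placed it past the threshold, lower in the cushion. The other mesenchymal gates held less Zeb1, 16.6 to 28.8 CPM in the Stmn4 gate and 11.9 to 18.7 CPM in the Crabp1 gate, and the cushion was higher by 0.58 ± 0.11 (adjusted p = 0.000327) and 1.23 ± 0.12 (adjusted p = 9.16e-09). Zeb2 had 42.2, 40.9, 40.6 and 44.5 CPM in the endocardium and 53.2, 50.2, 51.6 and 53.5 CPM in the cushion. Every cushion value lay above every endocardial value, but the test did not pass (0.22 ± 0.14, adjusted p = 0.211). Zeb2 was higher in the cushion than in the Crabp1 gate (0.57 ± 0.17, adjusted p = 0.00702), a call lost without Wt1 (0.20, adjusted p = 0.251) and with DESeq2 (0.35, adjusted p = 0.158). By mean level both members were lowest, among the 5 gates other than cardiomyocytes, in the epicardium, at 12.5 ± 1.98 CPM for Zeb1 and 25.3 ± 3.59 CPM for Zeb2 (SD, n = 4). Cardiomyocytes carried Zeb1 at 19.5 ± 2.20 CPM and Zeb2 at 20.9 ± 1.54 CPM (SD, n = 4). Their Zeb1 overlapped that of the Stmn4 and Crabp1 gates, so that they are no negative population for it.

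Sox9, a factor of the SRY-box family that is needed for the expansion of valve mesenchyme and for its matrix, was high in the cushion and the Stmn4 gate. It stood at 122, 128, 141 and 121 CPM in the cushion and at 14.7, 12.8, 15.6 and 15.6 CPM in the endocardium. In each library the cushion was between 7.75 and 9.96 times the endocardium (3.05 ± 0.16, adjusted p = 9.06e-13). The Stmn4 gate had 136, 135, 210 and 158 CPM, overlapping the cushion (-0.32 ± 0.15, adjusted p = 0.103). Crabp1 mesenchyme spread widely, with 33.3, 66.5 and 38.7 CPM in Wt1, Wt2 and Ho2 and 182 CPM in the 19 cells of Ho1, and the cushion was higher by 1.38 ± 0.18 (adjusted p = 8.28e-07). Epicardium carried 51.0 to 69.9 CPM, lower than the cushion by -1.01 ± 0.17 (adjusted p = 3.02e-05) and, unlike Twist1, above the endocardium in every library.

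Msx1 and Msx2 are homeobox factors that respond to bone morphogenetic proteins and act together in cushion formation, and their order over the gates differed. Msx1 stood at 128, 181, 151 and 184 CPM in the cushion and at 62.8, 59.7, 52.8 and 73.6 CPM in the endocardium. The ranges did not overlap (1.31 ± 0.25, adjusted p = 0.000213), and the endocardium was second of the 6 gates. The Stmn4 gate held 20.5, 19.6, 23.97 and 20.02 CPM (cushion higher by 2.95 ± 0.34, adjusted p = 3.37e-07). In Crabp1 mesenchyme, Wt1 had 104 CPM and Wt2, Ho1 and Ho2 had 30.9, 18.7 and 21.8 CPM, so that the cushion was higher by 1.68 ± 0.30 (adjusted p = 7.76e-05) with all libraries and by 2.91 without Wt1. Epicardium was at 3.80 to 11.04 CPM.

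Msx2 was nearly silent in the endocardium, with 6, 11, 11 and 14 UMIs over all cells of the gate in the respective libraries. In the cushion it stood at 4.82, 8.77, 8.40 and 9.97 CPM. The Stmn4 gate had 26.2, 29.4, 23.2 and 28.1 CPM and the Crabp1 gate 53.1, 39.7, 28.0 and 36.0 CPM. Both lay above the cushion, which was lower by -1.76 ± 0.22 (adjusted p = 9.56e-07) and -2.46 ± 0.20 (adjusted p = 5.97e-10). Cardiomyocytes also carried Msx2, at 17.1 ± 3.03 CPM (SD, n = 4), more than the cushion, and the epicardium, at 7.80 to 15.4 CPM, overlapped the cushion (0.43 ± 0.27, adjusted p = 0.215).

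Prrx1, a paired-related homeobox factor of limb, head and body wall mesenchyme, was highest in the Stmn4 and Crabp1 gates and nearly silent in the endocardium. The Stmn4 gate had 72.1, 82.4, 63.5 and 76.2 CPM and the cushion 21.4, 19.3, 12.9 and 13.4 CPM. The cushion was lower by -2.18 ± 0.25 (adjusted p = 4.31e-07). In the endocardium 14, 14, 6 and 9 UMIs were counted in Wt1, Wt2, Ho1 and Ho2, and the cushion was higher by 4.95 ± 0.43, a value given as a description since the filter fixed its direction. Crabp1 mesenchyme had 127 CPM in Wt1 and 39.1, 18.7 and 44.3 CPM in Wt2, Ho1 and Ho2, and the difference from the cushion was -1.91 ± 0.26 (adjusted p = 1.89e-06) with all libraries and -1.26 without Wt1. Epicardium held 24, 13, 0 and 8 UMIs.

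Cells of the endocardium and cushion gates were also split into finer bins by their UMIs of Cdh5 and Hapln1. Of the 5164 endocardial cells, 4243 (82.2%) also had 3 or more Hapln1 UMIs, so that most endocardial cells carried the cushion gene too. The bins order cells by counts and not in time, and whether they mark steps of a transition was not tested. Bins ran from Cdh5 of 2 or more with Hapln1 at 0 (268 cells), over Hapln1 of 1 to 2 (653 cells) and 3 or more (4243 cells), to Hapln1 of 3 or more with Cdh5 at 1 (849 cells) and at 0 (2082 cells). The bins differ in depth, because deeper cells reach a limit more easily: in Wt1 the median was 9076 UMIs in the first, 14608 in the third and 12263 in the last.

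Twist1 had a higher mean level in each successive bin, from 21.9 ± 15.0 CPM over 38.8 ± 4.4, 79.9 ± 3.28 and 317 ± 25.2 to 738 ± 60.1 CPM (SD, n = 4). From the second bin on, the ranges of neighbouring bins did not overlap. Sox9 stood at 5.41, 13.8 and 15.0 CPM in the 3 bins with Cdh5 and at 76.8 and 148 CPM in the last 2, again without overlap from the bin with both genes on. Msx1 stood at 67.1 CPM in the bin with both genes on and at 135 and 171 CPM in the last 2 bins, which overlapped. Prrx1 stood at 1.25, 0.97, 0.42, 1.39 and 22.7 CPM over the 5 bins, and Msx2 at 0.73, 0.47, 0.48, 2.67 and 10.1 CPM. Zeb1 had means between 32.9 and 39.6 CPM in the 5 bins, with single libraries from 25.7 to 41.96 CPM. Over the same bins Pdgfra, a receptor of mesenchymal cells, went from 3.59 to 86.2 CPM and Pecam1, an endothelial adhesion molecule, from 211 to 40.3 CPM. No test was run on the bins, since they were cut on counts of single cells.

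**Figure D3:**
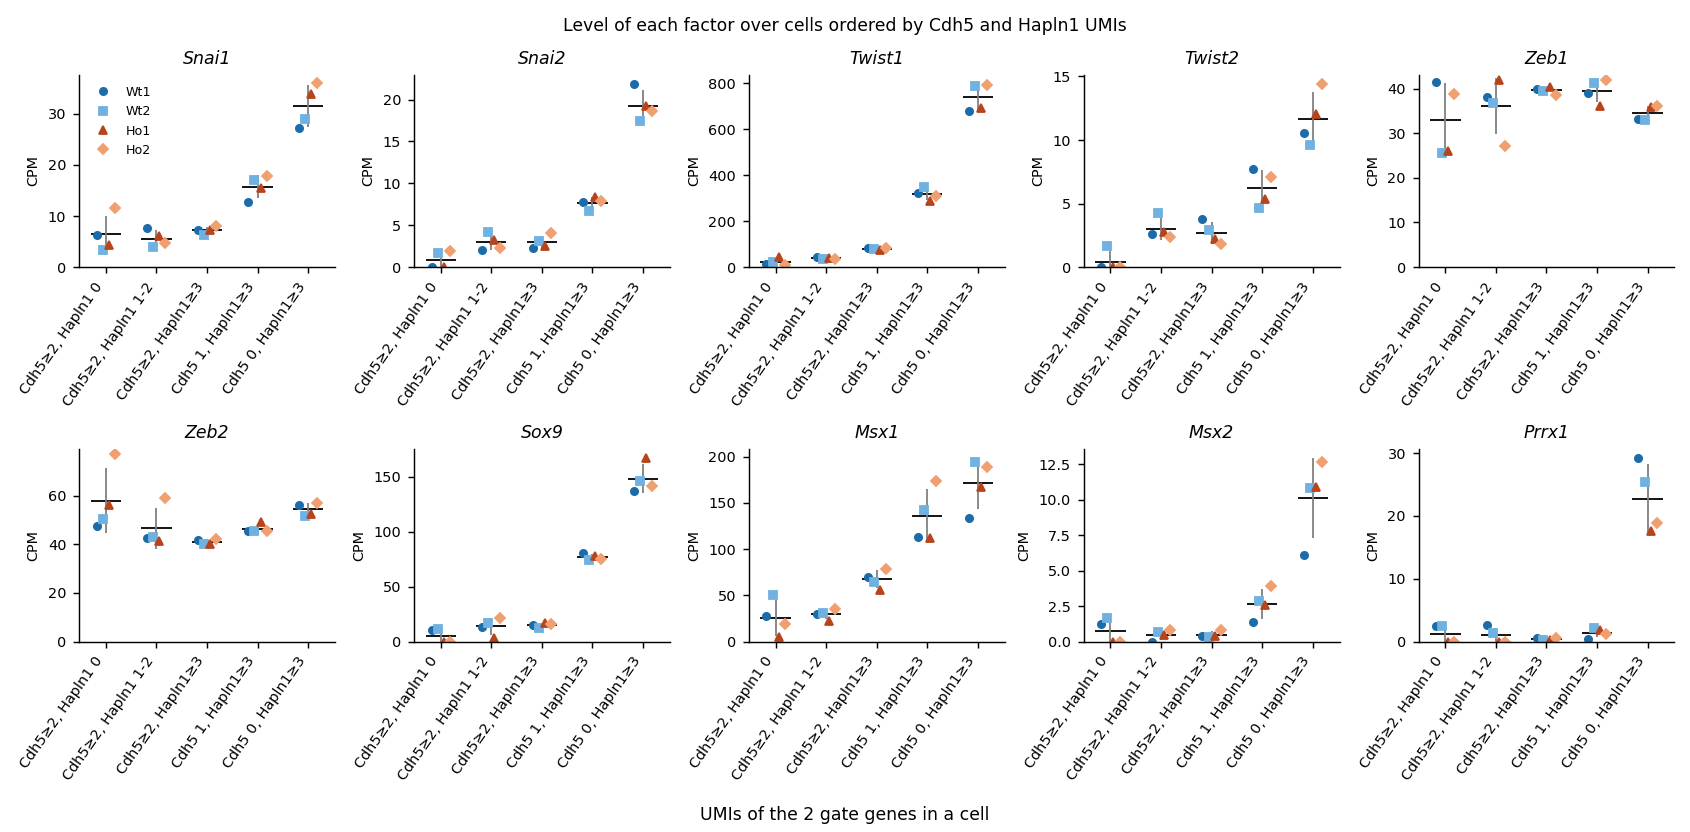
Level of the members in CPM (each panel with its own linear axis) over 5 bins of Cdh5 and Hapln1 UMIs, with 1 point per library, the mean as a black line and the SD of the 4 libraries as a grey bar. The mean of Twist1 is higher in each successive bin, that of Prrx1 is highest in the last, at 22.7 CPM, and that of Zeb1 lies between 32.9 and 39.6 CPM, with single libraries from 25.7 to 41.96 CPM.

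Within the endocardium the members were not evenly spread. Npr3, a natriuretic peptide receptor, and Wnt4, a secreted ligand, are both endocardial genes, and cells with Wnt4 alone were compared with cells with Npr3 alone. Of 8 members tested, 4 were higher in Wnt4 endocardium (Snai1, Twist1, Sox9 and Msx1) and none was lower, where 16.8% of 10732 genes were higher and 13.7% lower. Twist1 stood at 138, 121, 126 and 135 CPM in Wnt4 endocardium and at 55.6, 60.8, 61.1 and 53.3 CPM in Npr3 endocardium (1.15 ± 0.07, adjusted p = 2.83e-13). Sox9 had 27.2, 27.4, 42.3 and 24.7 CPM against 8.53, 8.50, 11.1 and 10.9 CPM (1.67 ± 0.14, adjusted p = 1.94e-10). Msx1 had 136, 93.2, 109 and 132 CPM against 44.9, 47.7, 44.6 and 64.1 CPM (1.21 ± 0.08, adjusted p = 2.30e-12). None of these 3 pairs of ranges overlapped.

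Snai1 in Wnt4 endocardium passed by less (0.59 ± 0.20, adjusted p = 0.0283), and the call was lost without Wt2 (adjusted p = 0.0797), Ho1 (0.219) or Ho2 (0.0537). Snai2, Twist2, Zeb1 and Zeb2 did not pass the test, and Msx2 and Prrx1 had too few UMIs to be tested. Cushion mesenchyme genes summed to 789 to 931 CPM in Wnt4 endocardium and to 474 to 618 CPM in Npr3 endocardium. Single genes of this list went both ways. By mean level Vcan (223 against 36.3 CPM) and Tbx20 (161 against 50.5 CPM) were higher in Wnt4 endocardium. Col3a1 (250 against 319 CPM) and Cdh11 (36.5 against 68.0 CPM) were lower. Endothelial genes summed to 2839 to 3501 and 3050 to 3800 CPM, again with single genes in both directions. Emcn had a mean of 123 against 370 CPM and Kdr of 84.3 against 163 CPM, while Nfatc1 had 107 against 45.8 CPM. Epicardial genes summed to 38.8 to 68.4 CPM in Wnt4 and to 10.02 to 12.7 CPM in Npr3 endocardium, and pharyngeal mesenchyme genes to 52.04 to 73.1 and 16.2 to 28.2 CPM. Cardiomyocyte genes, at 611 to 1101 and 492 to 728 CPM, were likewise higher in the Wnt4 part of every library. The part of any of these transcripts in the difference was not tested. Without the endocardial cells that had 3 or more Hapln1 UMIs, Twist1 (0.78, adjusted p = 0.707) and Msx1 (0.64, adjusted p = 0.928) were no longer called, and Snai1 and Sox9 had too few UMIs to be tested.

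The same patterns were read as shares of cells. Each cell was thinned to 2000 UMIs, and cells with fewer were left out (2907 of 2931 cushion cells and 8585 of 9540 cardiomyocytes remained). Twist1 was then detected in 58.9%, 58.7%, 58.4% and 56.7% of cushion cells in Wt1, Wt2, Ho1 and Ho2 (exact Clopper-Pearson 95% intervals, which cover counting error only, spanning 55.004 to 62.8% in Wt1, 52.4 to 60.9% in Ho2). In the endocardium the shares were 10.8%, 11.6%, 12.5% and 13.2%, and among cardiomyocytes, which should lack the gene, 1.45% to 2.65%. At 5000 UMIs a cell the mean share of Twist1 was 78.3% ± 2.93 in the cushion, 67.9% ± 3.58 in the Stmn4 gate and 4.85% ± 0.79 among cardiomyocytes (SD, n = 4). Without thinning the mean shares were 85.7% in the cushion, 47.2% in the endocardium and 11.6% among cardiomyocytes.

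Sox9 was detected in 20.4% ± 1.55 of thinned cushion cells (SD, n = 4), 25.2% ± 2.64 of Stmn4 cells and 2.88% ± 0.10 of endocardial cells, against 0.63% of cardiomyocytes. Msx1 was found in 23.2% ± 2.89 of cushion, 11.5% ± 1.65 of endocardial and 3.85% ± 1.08 of Stmn4 cells, against 0.69% of cardiomyocytes. Prrx1 reached 12.9% ± 1.76 of Stmn4 cells and 2.94% ± 0.43 of cushion cells, and its share in the endocardium (0.12%) lay below that of cardiomyocytes (1.34%). For Msx2 cardiomyocytes (3.57%) exceeded the cushion (1.42%), so that they are no negative population for either gene. Unthinned mean shares in the cushion were 59.6% for Sox9, 61.1% for Msx1 and 14.9% for Prrx1.

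**Figure D4:**
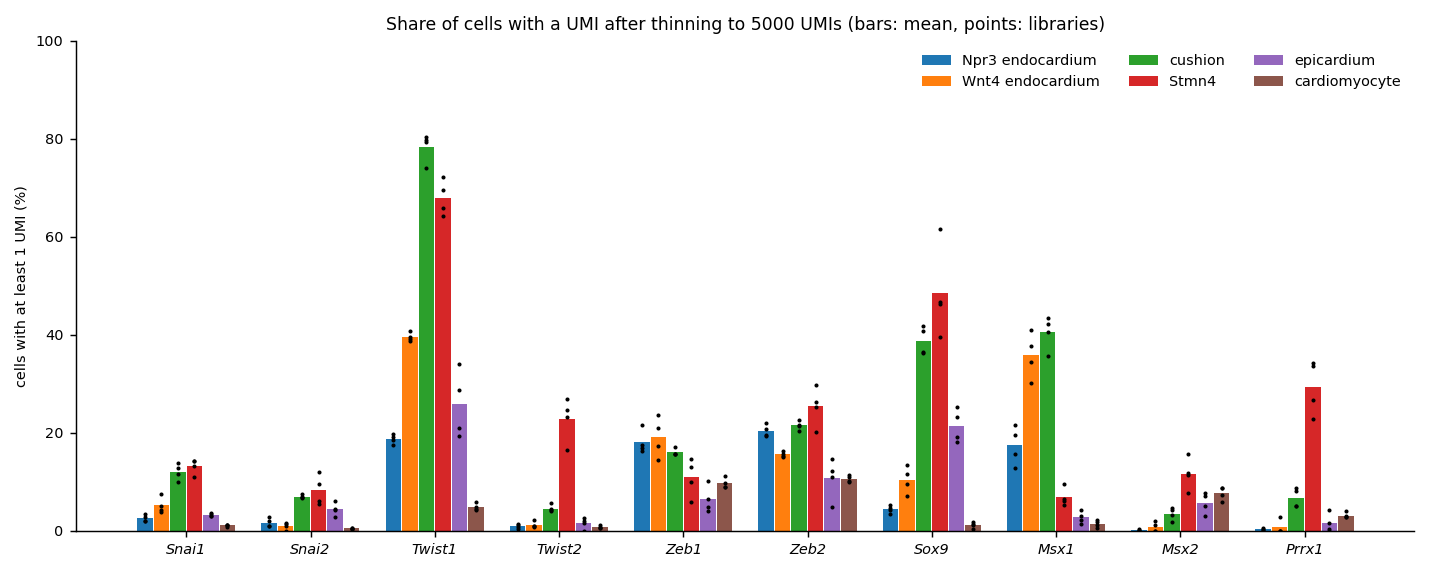
Percent of cells with at least 1 UMI of each member after thinning each cell to 5000 UMIs, by gate (the endocardium as its Npr3 and Wnt4 parts), with bars for the mean of the 4 libraries and 1 point per library. The cushion leads for Twist1 (78.3%), the Stmn4 gate leads for Prrx1 (29.3%), and the cardiomyocyte bars show the background for Twist1 (4.85%) and Sox9 (1.21%).

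Members were also counted together in single cells, thinned to 5000 UMIs. A cushion cell held on average 2.22, 2.35, 2.33 and 2.27 of the 10 members in Wt1, Wt2, Ho1 and Ho2, and a Stmn4 cell 2.33 to 2.58. Endocardial cells held 0.89 to 1.00 and cardiomyocytes 0.38 to 0.46. Cushion cells with a Twist1 UMI had a Sox9 UMI in 41.3%, 48.6%, 47.6% and 46.2% of cases, and those without in 17.5%, 10.53%, 17.7% and 7.86%. For Zeb1 the shares were 16.2%, 15.2%, 15.9% and 18.3% with Twist1 and 13.5%, 17.1%, 14.5% and 13.6% without. This split was chosen after the levels were seen and is given as a description, since cells of a library are not replicates.

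Between genotypes no member passed the test in any of 7 populations, the 5 gates other than cardiomyocytes, which were not tested, and the Npr3 and Wnt4 endocardium. In the endocardium 0 of 9 members tested passed in Ho against Wt, where 0% of 13435 genes passed, and 1 member had an unadjusted p under 0.05, as did 5.18% of all genes. In the cushion 0 of 10 passed (0.0488% of 12284 genes), with 2 members and 5.61% of all genes at an unadjusted p under 0.05. The same count of 0 of 10 was found in the Stmn4 gate (0% of 10832 genes, 1 member and 5.40% of all genes under 0.05 unadjusted), the Crabp1 gate (0% of 11404 genes, 2 members and 1.15%) and the epicardium (0.0939% of 10647 genes, 3 members and 5.22%). In Npr3 endocardium 0 of 8 members passed (0% of 11757 genes, 1 member and 4.91%) and in Wnt4 endocardium 0 of 6 (0.0215% of 9306 genes, no member and 5.05%). DESeq2 also called no member in any of them. The test of whether the genotype effect differed among the 5 gates passed for 0 of 10 members (0% of 12448 genes), with Twist1 and Msx1 and 2.23% of all genes under 0.05 before adjustment, and DESeq2 called none of them. With 2 libraries per genotype, a missed threshold does not show that the levels were equal, and an exact permutation test cannot go below p = 0.333.

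In the cushion the log2 fold change of Ho over Wt was -0.04 ± 0.09 for Twist1 and 0.03 ± 0.09 for Zeb2. Prrx1 stood at 21.4 and 19.3 CPM in Wt1 and Wt2 and at 12.9 and 13.4 CPM in Ho1 and Ho2, without overlap (-0.61 ± 0.14, unadjusted p = 0.000897, adjusted p = 0.306). Without Ho2, which leaves a single Ho library, this difference was -0.62. It passed the threshold without a filter on low counts (adjusted p = 0.00948). Snai1 was 23.2 and 25.9 CPM in Wt and 28.4 and 30.4 CPM in Ho (0.26 ± 0.12, adjusted p = 0.869). Both Ho values of Snai1 lay above both Wt values, by a gap no wider than that between the Wt libraries. The 6 genes that passed in the cushion, all higher in Ho, were Igfbp5, Wdr89, Wdcp, Rps27rt, Rpl9-ps6 and A430010J10Rik, named after their values were seen.

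In the Stmn4 gate Sox9 was 136 and 135 CPM in Wt and 210 and 158 CPM in Ho (0.49 ± 0.14, unadjusted p = 0.00477, adjusted p = 0.847). Ho1 carried most of this difference, which fell to 0.24 without it and was 0.68 without Ho2, each fit leaving a single Ho library. With the replicate number as a block the adjusted p was 0.0294. The cushion list summed to 2614 CPM in the Stmn4 gate of Ho1 against 2205 to 2252 CPM in the other libraries, with Postn at 327 against at most 220.4 CPM and Vcan at 477 against at most 351 CPM, and the part of these transcripts in the Sox9 difference was not tested. In the epicardium Twist1 was 99.3 and 81.7 CPM in Wt and 52.8 and 59.8 CPM in Ho, without overlap (-0.63 ± 0.14, unadjusted p = 0.000754, adjusted p = 0.284). This difference passed with the replicate number as a block (-0.63, adjusted p = 0.00634) and was -0.80 without Wt2, a fit with a single Wt library. In this gate cardiomyocyte genes summed to 3390 and 3365 CPM in Wt and to 4825 and 3855 CPM in Ho, and outflow mesenchyme genes to 1820 and 1864 CPM in Wt and to 1249 and 1635 CPM in Ho. Crabp1, the marker of another mesenchymal gate, stood here at 117 and 23.6 CPM in Wt1 and Wt2 and at 15.2 and 40.6 CPM in Ho1 and Ho2. The part of any of these transcripts in the epicardial differences was not tested. Epicardial Prrx1, at 24 and 13 UMIs in Wt and 0 and 8 UMIs in Ho, had an adjusted p of 0.641, which became 0.0119 with that block. Its log2 fold change was -3.26 without Wt2. Only the Wt libraries carried enough Prrx1 UMIs to pass the filter on low counts. The direction was thus fixed by the filter, and these values are no support. Sox9 in the epicardium was 57.1 and 51.0 CPM in Wt and 69.9 and 62.0 CPM in Ho (0.33 ± 0.15, adjusted p = 0.944).

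In the Crabp1 gate Ho1 held 19 and Wt1 1949 of the 2722 cells. Msx1 was 104 CPM in Wt1 and 30.9, 18.7 and 21.8 CPM in Wt2, Ho1 and Ho2 (-1.77 ± 0.61, adjusted p = 1.00). Its difference fell to -0.50 without Wt1 and reached -2.45 without Wt2, each fit leaving a single Wt library. Zeb2 was 20.9 and 39.7 CPM in Wt and 117 and 47.8 CPM in Ho (1.18 ± 0.43, adjusted p = 1.00), with 0.70 left without Ho1. The ranges of Zeb2 did not overlap, but the high value is that of the 19 cells of Ho1. In the endocardium Twist2 was 3.46 and 3.01 CPM in Wt and 2.25 and 1.83 CPM in Ho (-0.59 ± 0.23, unadjusted p = 0.0323, adjusted p = 0.935). Cyp51 itself stood at 46.9, 41.6, 39.9 and 39.8 CPM in the endocardium and at 42.7, 49.9, 50.5 and 42.3 CPM in the cushion of Wt1, Wt2, Ho1 and Ho2.

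**Figure D5:**
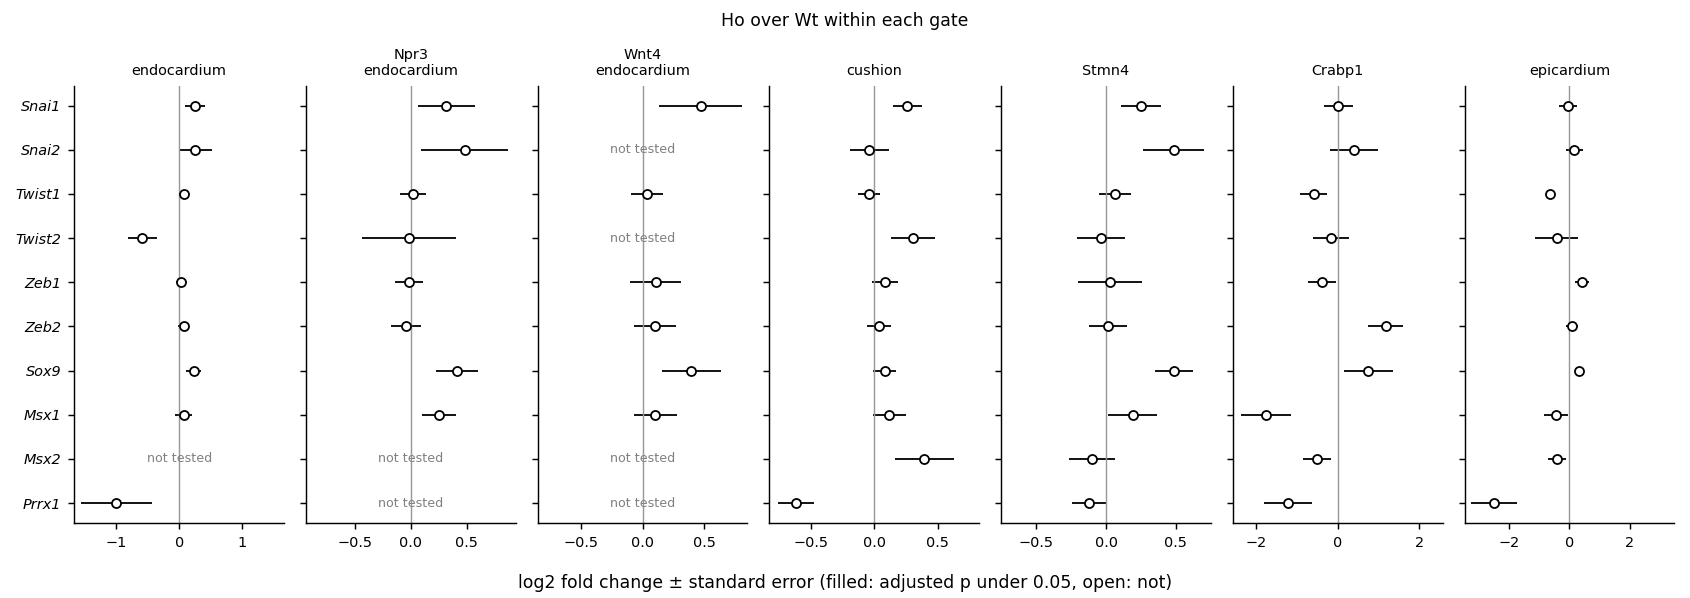
Log2 fold change of Ho over Wt for each member in each gate with its standard error, open where the adjusted p was 0.05 or more. All points are open, and the largest standard errors are those of Prrx1 (0.76) and Twist2 (0.72) in the epicardium.

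The other genes of cushion formation moved in both directions between gates. Of a list of 51 ligands, receptors, Notch genes and matrix genes of the process, 23 were higher and 14 lower in the cushion than in the endocardium, with a median log2 fold change of 0.28, where 19.4% of all genes were higher and 20.7% lower. The largest were Col1a1, a fibrillar collagen chain (4.02), Cthrc1, a secreted collagen-associated protein (3.92), Erbb3, the receptor of neuregulin (3.89), and Pdgfra (3.39). Cthrc1 went from 38.9, 34.1, 35.0 and 31.6 CPM in the endocardium to 541, 562, 605 and 523 CPM in the cushion. Against the Stmn4 gate 13 were higher and 19 lower (all genes 16.8% and 17.4%), with the contractile genes Acta2 (-4.39) and Tagln (-3.51) lower and Dll4, a Notch ligand (3.75), and Tgfbr3, a co-receptor (2.87), higher. Against the Crabp1 gate 30 were higher and 12 lower (all genes 25.7% and 23.9%), led by Eng, an endothelial co-receptor (4.83), Erbb3 (4.33), S100a4 (4.19, at no more than 0.34 CPM in any Crabp1 library) and Nrg1, a neuregulin (4.17). At that level the direction of S100a4 was fixed by the filter on low counts, and its call is no support. In the epicardium 15 were higher and 28 lower than in the cushion (all genes 23.7% and 23.6%), led by Eng (-6.12), Nrg1 (-5.49), Bmp7, a bone morphogenetic protein (4.18), and Mmp2, a matrix protease (-4.06).

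A second list, of 47 other transcription factors of heart and head mesenchyme, had 38 members tested between gates. In the cushion 19 were higher and 5 lower than in the endocardium, with a median of 0.49 (all genes 19.4% and 20.7%). The largest were Sox10, a neural crest factor (5.14), and the T-box factors Tbx2 (4.04), Tbx18 (3.27) and Tbx3 (3.19), all from low levels in the endocardium. Where such a gene passed the filter on low counts only through gates in which it was higher, its direction was fixed. These values are therefore given as a description. Against the Stmn4 gate 4 were higher and 14 lower (all genes 16.8% and 17.4%), led by Hand1 (-4.70), Tfap2a (-4.22), Foxf2 (-3.45) and Dlx5 (-3.05), and against the Crabp1 gate 10 were higher and 18 lower (all genes 25.7% and 23.9%), led by Dlx5 (-6.30), Alx1 (-6.07), Foxf2 (-5.74) and Hand1 (-5.64). Dlx5 and Alx1 were at no more than 0.37 and 0.53 CPM in any cushion library, so that their direction here was fixed by the filter on low counts. In the epicardium, 11 were higher and 18 lower than in the cushion (all genes 23.7% and 23.6%), led by Tbx18 (6.33), Meox1 (-4.51), Alx1 (3.98, with the same limit) and Nfatc1 (-3.58), with Tbx18 at 128 to 181 CPM against 0.92 to 4.62 CPM.

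Both lists moved in Wnt4 endocardium as well. Of the cushion list 25 of 45 genes tested were higher than in Npr3 endocardium and 7 lower, where 16.8% of all genes were higher and 13.7% lower, led by S100a4 (5.42), Heyl, a target of Notch (2.65), and the matrix genes Vcan (2.59) and Tnc (2.34). Vcan stood at 269, 216, 243 and 165 CPM in Wnt4 endocardium and at 31.7, 33.8, 46.5 and 33.3 CPM in Npr3 endocardium. Of the second list 11 of 23 were higher and 5 lower against the same shares of all genes, led by Prrx2 (2.65), Meox1 (2.45), Tcf21 (2.15) and Tbx20 (1.66). Between genotypes no gene of either list passed in any of the 7 populations with edgeR or DESeq2. At an unadjusted p under 0.05, 5 of 51 and 6 of 30 genes tested were counted in the endocardium, where 5.18% of all genes were, and 5 of 50 and 4 of 30 in the cushion, where 5.61% were.

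Genes whose levels most resembled each member were sought over 24 sums (4 libraries by 6 gates) among 9188 genes. These are descriptions, since the sums share libraries and depth. Snai2 and Sox9 were each other's closest gene (Pearson r of 0.98), and Cthrc1 was rank 3 for Sox9 (0.96). Twist1 was closest to Fip1l1 (0.97), Specc1 (0.96) and Sox5 (0.95), and Snai1 to Rcn2 (0.96), Ppdpf (0.96) and Gorab (0.95). Twist2 was closest to Cyth2 (0.94), Aldh2 (0.94) and Bdnf (0.94), and Prrx1 to Cblb (0.91), its paralogue Prrx2 (0.90) and Twist2 (0.88). Msx1 was closest to Commd8 (0.94), Fzd10os (0.92) and Stx18 (0.91), which lies 214 kb away on the same chromosome, and Msx2 to Meis3 (0.94), Arl3 (0.94) and Gstm5 (0.93). Zeb1 was closest to Rwdd2a (0.95), Ptpn18 (0.92) and Pi16 (0.92), and Zeb2 to Tmem198b (0.94), Smad6 (0.93) and Gsk3b (0.93). Among pairs of members r ran from -0.64 for Zeb1 with Msx2 to 0.98.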

How the data were processed

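Single-cell RNA of 4 heart libraries (2 Wt, 2 Ho) was analysed from the deposited count matrices, which hold raw UMI counts per gene and barcode that the authors made with Cell Ranger 6.1.1 on mm10, while Seurat 4.1.0 is named for later steps in the submitters' processing notes. The counts were used as deposited, with no unused columns. Cells with 500 to 50000 UMIs, 500 to 6000 genes and at most 20% mitochondrial UMIs were kept, and doublets called with Scrublet in scanpy 1.11.5 (5.17% to 7.73% of a library) were removed. Gates other than cardiomyocytes required at most 2% of UMIs from 10 sarcomere genes and fewer than 2 Epcam UMIs, and a cell entered the first gate it met. After cell numbers, but not member levels, had been seen, the endocardium gate was set to all cells with 2 or more Cdh5 UMIs, because most also had 3 or more Hapln1 UMIs.

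UMIs were summed per library and gate and tested with edgeR 4.0.16 (quasi-likelihood F test, TMM, filterByExpr) under R 4.3.3, with Benjamini-Hochberg adjustment over all genes tested and a threshold of 0.05. Contrasts between gates used 24 sums with library as a block, the endocardial split 8 sums, and the test of genotype by gate 20 sums. The genotype fit in the cushion and a fit of cushion against endocardium were tested on simulated data with known changes. The other fits were not. Alternatives were RLE scaling, DESeq2 1.42.0 (adjusted p given as NA left out), other filters, limits, doublet and thinning settings, a replicate block and leaving out each library.

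The members and the gene lists were chosen with earlier results of these data known. All 10 members are named in every gate; of the 2 gene lists, the 4 called genes with the largest absolute log2 fold change are named between gates and in the endocardial split, while between genotypes, where none was called, the lists are given by counts, and for likeness the 3 genes of highest Pearson r of log2(CPM + 1), among genes of at least 10 CPM in some gate. Gene identifiers of 32235 of 32285 genes (99.8%) matched GENCODE M21, and 7 of 10 members matched the RefSeq promoter table. The position of Zeb1 is not reported here. Total UMIs per library ranged from 107377100 to 127018819 in the deposited tables. Levels are not corrected for transcript length, so that levels were compared between gates and not between genes.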

Additional observations from a re-analysis of the deposited data

How the results depend on the processing

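Leaving out 1 library at a time gave 0 to 1 members called in Ho against Wt in the cushion (Prrx1 without Ho2), 0 to 1 in the Stmn4 gate (Sox9 without Ho2), 0 to 2 in the Crabp1 gate (Msx1 and Prrx1 without Wt2), 0 to 2 in the epicardium (Twist1 and Prrx1 without Wt2), 0 to 1 in Npr3 endocardium (Msx1 without Ho1) and 0 to 1 for genotype by gate (Msx1 without Wt2). In those same fits 204, 212, 58, 84, 157 and 22 of all genes were called, in this order. Each fit without 1 library leaves a single library in that genotype, whose own spread then cannot be measured, so that these calls are no support. Without a filter on low counts the members called were 1 in the cushion, 1 in the Stmn4 gate, 1 in the Crabp1 gate, 2 in the epicardium and 4 for genotype by gate, where 130, 99, 54, 139 and 229 of all genes were called against 6, 0, 0, 10 and 0 with the filter. In endocardium and Wnt4 endocardium 0 members were called under all 20 alternatives, but over all genes the count in the endocardium ran from 0 to 195 and in the cushion from 0 to 204. The replicate block called 1 member in the Stmn4 gate (Sox9, among 52 genes), 2 in the epicardium (Twist1 and Prrx1, among 115 genes) and changed no other call of a member. For epicardial Prrx1 the filter on low counts had fixed the direction. The correlation of the deviations of same-numbered libraries was -0.066 in the endocardium, 9.6e-05 in the cushion and 0.065 in the Stmn4 gate. It was -0.23 in the Crabp1 gate and -0.050 in the epicardium. With 2 libraries per genotype, these values cannot show whether the replicate numbers mark a pairing. A crossed pairing in the Crabp1 gate, chosen after seeing the data, called 3 members and 187 genes.

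Between gates, a filter of at least 10 counts in every library left 3 members to test, and 2 were called for cushion against endocardium, 1 against Stmn4, 3 against Crabp1 and 3 for epicardium against cushion, the fewer members being the reason. In Wnt4 against Npr3 endocardium 2 members were called when gates were set on thinned cells, and 0 when cells with 3 or more Hapln1 UMIs were left out, an alternative chosen after seeing the data. Snai1 in cushion against Crabp1 changed sign to 0.083 with cells thinned to 2000 UMIs, and the cause was not tested. The 8 members higher in the cushion than in the endocardium kept their call in every alternative in which they were tested. RLE scaling moved the median of all genes by at most 0.013.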

Other observations

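The 790 cells with neither gene carried, by mean level, the most Twist1 and Sox9 of the endocardial parts, although their Twist1 overlapped that of the Wnt4 cells. Twist1 stood there at 115, 138, 162 and 164 CPM in Wt1, Wt2, Ho1 and Ho2, and Sox9 at 44.9, 45.6, 57.6 and 49.8 CPM. The 2023 cells with both genes had the least Sox9, at 6.57, 4.82, 5.61 and 6.62 CPM, and Twist1 at 62.2, 52.8, 53.9 and 54.8 CPM, overlapping the Npr3 cells. Msx1 had a mean of 94.1 CPM in the cells with neither gene and of 51.6 CPM in those with both, against 50.3 CPM in Npr3 and 118 CPM in Wnt4 cells. For Twist1 and Sox9 the cells with neither marker did not overlap those with both. Endothelial genes summed to 2620 to 4199 CPM in the cells with neither gene, and red cell genes to 5269 CPM in Ho1 against at most 201 CPM in the other libraries. Outflow mesenchyme genes summed to 334 to 725 CPM there and to 124.7 to 140.2 CPM in the cells with both genes, and cushion genes to 602 to 1021 and 629 to 675 CPM. The part of these transcripts in the levels of Twist1 and Sox9 was not tested. No test was run on these parts.

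The 7108 cells in no gate also carried members, with Twist1 at 88.4 to 123 CPM and Prrx1 at 42.1, 21.9, 8.11 and 16.0 CPM. Their make-up differed between libraries, with red cell genes at 1338, 43.3, 31699.6 and 4095 CPM in Wt1, Wt2, Ho1 and Ho2. No comparison between genotypes was made in them.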
